A study of Mus musculus with 5 samples.

Results

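The cytosolic ribosomal protein genes encode the protein subunits of the ribosome that translates nuclear-encoded messages. They were selected from the mouse annotation as the protein-coding genes whose symbols begin with Rpl or Rps and a digit, together with Rplp0, Rplp1, Rplp2 and Rpsa. S6 kinase genes and pseudogenes were left out. This gave 86 genes, 52 named for the large subunit and 34 for the small subunit, of which 85 are among the 49246 genes with a transcript in every library. Of the 86, 77 encode the standard subunits (46 large, 31 small). The other 9 are paralogs (Rpl3l, Rpl7l1, Rpl10l, Rpl22l1, Rpl36al, Rpl39l, Rps27l and Rps27rt) and Rps19bp1, whose symbol meets the rule but which encodes a protein that binds Rps19.

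RNA was measured in bone marrow-derived macrophages of wild-type C57BL/6 mice. Marrow cells had been grown for 6 days with either CSF1 or medium conditioned by L929 cells, and the labels do not say which was used for which library. At that point 96% of cells carried F4/80 and CD11b, surface proteins of macrophages. Both groups then received 10 ng/ml interleukin 4 (IL-4) for 24 h, the cytokine that drives alternative (M2) activation. The IL4+CBR-5884 group had first been given 30 µM CBR-5884, an inhibitor of PHGDH, the first enzyme of serine synthesis (3 libraries, replicates 3, 4 and 5), and the IL4+solvent group had been given solvent (2 libraries, replicates 3 and 5). Macrophages that received no IL-4 are not analysed here.

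A ribosome joins a large subunit, which forms peptide bonds, to a small subunit, which reads the message. Each standard protein is needed in about equal numbers, and in mammals the genes are expressed at high and similar levels in nearly all cells. Their transcripts usually begin with a C followed by a run of pyrimidines, the 5' terminal oligopyrimidine (TOP) tract, through which the kinase mTOR and the protein LARP1 control their translation and stability in response to nutrients. Their promoters often hold sites for ETS factors such as GABP and for YY1.

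RefSeq promoters on GRCm38.p6 were matched by symbol for 66 of the 86 genes. A pyrimidine string, CTTTC or CTTCC on the transcribed strand, lay between 5 bases before and 25 bases after the annotated start in 26 of the 66 (39.4%), and in 11.0% of 27025 symbols with a promoter entry. The 30-base windows below are shown for genes with and without the string, a choice made after the log2 fold changes given later were seen. Those of the genes shown run from -0.38 (Rpl18) to 0.098 (Rpl36a). Rps14, Rps27rt and Rplp1, with more negative values (-0.58, -0.49 and -0.46), are not shown. Capitals mark the string.
Rpl13a, chr7:45128721-45128750, minus strand: gacaagacctcctcCTTTCccaggcggctg
Rpl18, chr7:45718066-45718095, plus strand: aggccgctCTTTCcccgcccactccggcgc
Rplp2, chr7:141447646-141447675, plus strand: tCTTCCTTTCgccgccggacgccgccgagg
Rpl38, chr11:114668575-114668604, plus strand: tcgttCTTTCcccgttctcttcggttctca
Rps27, chr3:90213624-90213653, minus strand: tcgctcCTTTCcggcggtgacgacctccct
Rpl22l1, chr3:28805503-28805532, plus strand: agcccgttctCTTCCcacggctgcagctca
Rpl36a, chrX:134585649-134585678, plus strand: gcaccgcctataaaCTTCCgttgcggctct
Rps12, chr10:23787185-23787214, minus strand: cggccaccgccggccttttcccctgccgcc
Rps27l, chr9:66946081-66946110, plus strand, the first of 2 entries: ccgccgcctctatcccggaagttgctgagg

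Beyond the start, CCGGAAG, the core of ETS sites, was found on either strand of the 300-base promoter in 26 of the 66 genes (39.4%), against 9.93% of all symbols. AAGATGG, the core of YY1 sites, was found in 10 of the 66 (15.2%), against 7.28% of all symbols. Read on the opposite strand CCGGAAG contains CTTCC, and that overlap fell inside the start window of 1 of the 66 genes and of 303 of all symbols. A match is a description of the sequence, and no match says only that these letters are not in the window.

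The markers of macrophages were abundant. All 8 macrophage markers were detected, with summed FPKM (fragments for each kilobase of a transcript, relative to the library's mapped fragments) of 13078, 9743 and 10863 with CBR-5884 and 13092 and 11011 with solvent; 4 had negative and 4 positive log2 fold changes. Summed FPKM per library of the other lists, CBR-5884 against solvent, was 4.31 to 5.19 against 8.76 to 9.83 for 5 monocyte markers, 10.5 to 13.3 against 10.7 to 21.4 for 8 neutrophil markers and 10.8 to 17.1 against 17.9 to 18.9 for 6 fibroblast markers. It was 0.908 to 1.56 against 1.71 to 2.88 for 6 dendritic cell markers, and at most 0.277 for lymphocyte, 0.447 for mast cell or basophil and 0.11 for erythroid markers in any library. Cd3e and Ly6g, which define T cells and neutrophils, were at 0 in all 5 libraries. Other neutrophil markers were detected, and S100a8 and S100a9 made up most of the neutrophil sum. S100a8 was at 9.32, 10.6 and 10.0 FPKM in CBR-5884 libraries and 10.1 and 7.03 with solvent. Cxcr2, Ltf and Camp were lower in every CBR-5884 library, with means of 0.351, 0.113 and 0 FPKM against 0.701, 0.566 and 0.269. S100a8, S100a9, Mpo and Elane overlapped. The monocyte, dendritic cell and fibroblast sums were lower in every CBR-5884 library than in either solvent library, and their part in the results below was not tested. Ccr2, a chemokine receptor, made up most of the monocyte sum, with 3.45, 3.71 and 3.54 FPKM in CBR-5884 libraries and 7.66 and 8.19 in solvent libraries (log2 fold change -0.97, adjusted p = 0.0395 by limma), whereas Vcan averaged 0.426 FPKM in CBR-5884 libraries and 0.322 in solvent libraries. Of 6 genes that respond to IL-4, 5 were lower and 1 higher in all CBR-5884 libraries, against 24.9% and 16.6% of all genes tested. The depth implied by the files was 30391703, 30227068 and 30698831 fragments with CBR-5884 and 28853377 and 28314193 with solvent.

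Ribosomal protein transcripts were less abundant with CBR-5884 as a family, and the difference was small for each gene. Summed over the large subunit genes, FPKM was 15342, 15131 and 15223 with CBR-5884 and 17143 and 17157 with solvent. Summed over the small subunit genes it was 13396, 13014 and 13369 with CBR-5884 and 15318 and 15325 with solvent. The libraries of each group lay close together and the groups did not overlap. The large subunit sum was 11.2% lower with CBR-5884, the small subunit sum 13.5% lower, and both together 12.3% lower (28492 ± 309 against 32471 ± 15.3 FPKM; SD, n = 3 and 2). In bulk RNA, fewer cells of a type and less RNA per cell cannot be told apart, and FPKM is relative to all mapped fragments of a library.

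**Figure D1:**
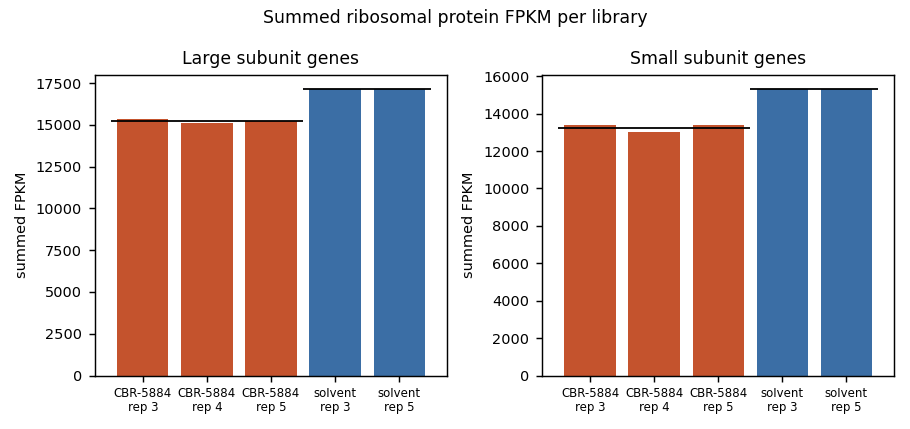
Summed FPKM of the large subunit genes (left) and small subunit genes (right) in each library, with bars from 0 and black lines at group means. Every CBR-5884 bar (orange) is below both solvent bars (blue) in each panel.

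As a share of the FPKM of all protein-coding genes, ribosomal protein genes held 6.35%, 6.23% and 6.28% with CBR-5884 and 6.93% and 6.58% with solvent. The CBR-5884 libraries were again the lower ones, while the solvent libraries differed from each other. The mean share was 6.29% with CBR-5884 and 6.75% with solvent, a smaller relative difference than the 12.3% of the summed FPKM. The ratio of the large to the small subunit sum was 1.145, 1.163 and 1.139 with CBR-5884 and 1.119 and 1.120 with solvent. It was higher in every CBR-5884 library, but the CBR-5884 mean over the solvent mean was 1.03 with all transcripts and 1.00 with reference transcripts only, so the balance of the subunits depended on how transcripts assembled from the reads were counted.

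Of the 86 genes, 82 were tested (48 large, 34 small). The others were Rpl13, which is not analysed here, Rpl10l, listed at 0 in all 5 libraries, and Rpl3l and Rpl39l, with a mean below 1 FPKM. None passed limma's test across 10770 genes at an adjusted p below 0.05, where 0.223% of all genes passed (0.176% lower and 0.0464% higher with CBR-5884). At an unadjusted limma p below 0.05, 26 large and 20 small subunit genes were lower and 0 were higher, against 12.4% of all genes lower and 7.24% higher. All 3 CBR-5884 libraries lay below both solvent libraries for 36 of 48 large subunit genes (75.0%) and 26 of 34 small subunit genes (76.5%), against 24.9% of all genes. No ribosomal protein gene had all CBR-5884 libraries above both solvent libraries, against 16.6% of all genes.

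The log2 fold change was negative for 45 of 48 large subunit genes, with a median of -0.14, and for 31 of 34 small subunit genes, with a median of -0.18. Over all genes tested 55.7% were negative and the median was -0.031. Among 670 other genes with a mean of at least 100 FPKM, 380 were negative and the median was -0.029, close to that of all genes. Relative to the median of all genes, the large subunit median was lower by a log2 difference of -0.11 and the small subunit median by -0.15. When the libraries were rescaled to a common sum, by median ratios, by quantiles or to protein-coding genes without ribosomal proteins, these differences were -0.096 to -0.11 and -0.13 to -0.14. Under the same 4 rescalings 39 to 41 large and 29 to 31 small subunit genes were negative, and all CBR-5884 libraries lay below both solvent libraries for 26 to 32 large and 21 to 25 small subunit genes, against 18.3% to 20.8% of all genes. At an unadjusted limma p below 0.05, 1334 of all genes were lower and 780 higher as deposited. These counts were 1017 and 1170 with a common sum, 1060 and 1034 with median ratios and 945 and 1163 with quantiles. They were 1040 and 982 with protein-coding genes without ribosomal proteins. Of the family, 26 large and 20 small subunit genes were lower as deposited. Under the 4 rescalings 19 to 22 large and 13 to 17 small subunit genes were lower, and 0 were higher.

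**Figure D2:**
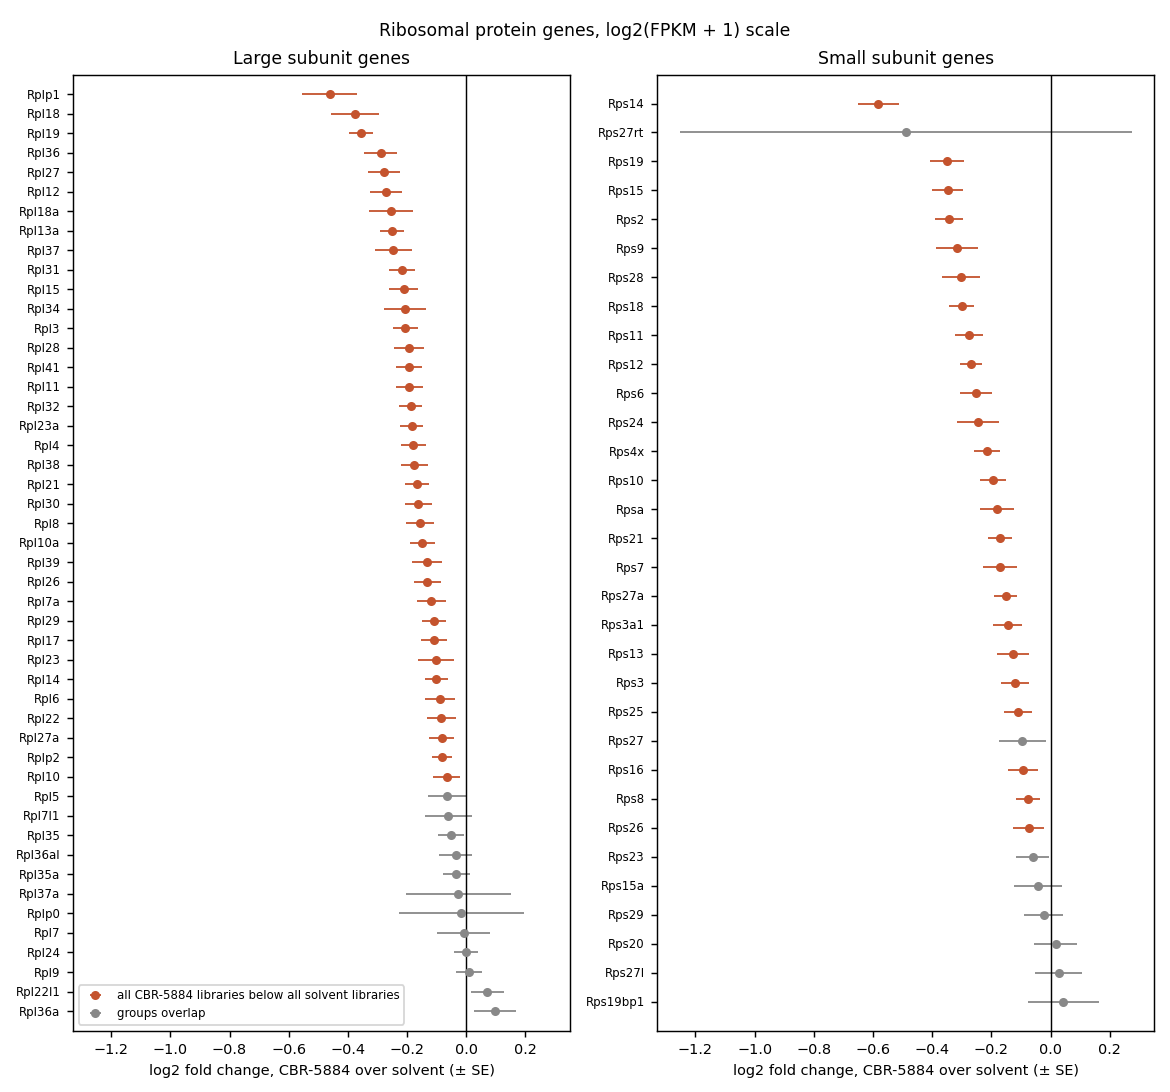
Log2 fold changes of tested genes, CBR-5884 over solvent, with limma's standard error, for large (left) and small (right) subunit genes. Genes whose CBR-5884 libraries all lie below both solvent libraries are orange, and 6 genes lie to the right of 0 with FPKM as deposited.

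The shift was alike in every library. The median log2 ratio of each gene to its solvent mean was -0.15, -0.15 and -0.16 in CBR-5884 replicates 3, 4 and 5 for large subunit genes, and -0.16, -0.21 and -0.18 for small subunit genes. The solvent libraries were within 0.01 of 0 on this scale, but their own mean is its reference, so they centre on 0 by construction. Of the 76 tested standard subunits, 65 were below the solvent mean in all 3 CBR-5884 libraries. This criterion is looser than no overlap, and the share of all genes that meet it was not computed. Replicates of a gene agreed closely, with a median coefficient of variation of 2.91% in CBR-5884 libraries and 2.71% in solvent libraries. The widest were Rplp0 in CBR-5884 libraries (24.9%) and Rplp1 in solvent libraries (13.5%), both described below. Nothing in the labels ties the replicates to separate animals or cultures, so these errors and the p-values measure the spread between libraries, which may in part be technical.

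Levels per length spanned a wide range within each subunit. Mean FPKM of the standard large subunit genes tested ran from 94.6 for Rpl5 to 1323 for Rplp1, with a median of 286, and that of the standard small subunit genes from 31.3 for Rps20 to 977 for Rps29, with a median of 424. The median change was -10.2% for large and -11.9% for small standard subunits, with ranges of -27.7% to 6.85% and -33.3% to 1.22%. Across the 76 genes, mean log2 level and log2 fold change had a Pearson's r of -0.29 and a Spearman's rho of -0.24, given as a description over genes that share 5 libraries.

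The groups by structure, human disease and chromosome that follow were drawn up after the values were seen. Over the 82 tested genes of the family, 92.7% were negative and 75.6% did not overlap. Differences of the groups from these shares were not tested. The stalk of the large subunit, which recruits the elongation factors, had negative log2 fold changes in 4 of 4 genes with FPKM as deposited, with a median of -0.18, and 3 did not overlap. Its base, Rplp0, was at 397, 594 and 393 FPKM in CBR-5884 libraries and 473 and 444 in solvent libraries. Replicate 4 alone was above the solvent libraries, and the groups overlapped (log2 fold change -0.017 with a standard error of 0.21, adjusted p = 0.97 by limma). In that library 263 of the 594 FPKM came from a transcript of 477 nt that Cufflinks had assembled. With reference transcripts only the log2 fold change was -0.30, and with a length-weighted level, in which short fragments count by their length, it was -0.18 (limma, adjusted p = 0.149). Rplp0 took a positive sign under 4 rescalings of the libraries.

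Rplp1, one of the acidic proteins that bind Rplp0, was the most abundant ribosomal protein transcript. It was at 1137, 1120.0 and 1184 FPKM in CBR-5884 libraries and 1436 and 1738 in solvent libraries. The groups did not overlap, with the log2 fold change at -0.46 (standard error 0.093, adjusted p = 0.134 by limma). Solvent replicate 5 was the higher of its group through an assembled transcript of 365 nt with 473 FPKM, and with reference transcripts only the log2 fold change was -0.23. Its partner Rplp2 (chromosome 7, 141447370 to 141451585, GRCm38) was at 926, 931 and 917 FPKM in CBR-5884 libraries and 979 in both solvent libraries. All its CBR-5884 libraries were lower (log2 fold change -0.083 with a standard error of 0.034, adjusted p = 0.288 by limma), by less than those of Rplp1. Rplp2 is the gene whose start window holds both forms of the pyrimidine string.

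Proteins around the peptidyl transferase centre, where the peptide bond is formed, had negative log2 fold changes in 4 of 4 genes, with a median of -0.17, and none overlapped. Rpl3, which reaches into the centre, was at 246, 249 and 248 FPKM in CBR-5884 libraries and 294 and 278 in solvent libraries (log2 fold change -0.21 with a standard error of 0.043, adjusted p = 0.138 by limma). Rpl10, the last large subunit protein to join before a subunit becomes active, was at 372, 348 and 360.0 FPKM in CBR-5884 libraries and 377 in both solvent libraries. Its separation was narrow (log2 fold change -0.066 with a standard error of 0.045, adjusted p = 0.468 by limma). Rpl10a, which forms the L1 stalk at the exit side, was at 179, 177 and 171 FPKM in CBR-5884 libraries and 196 and 193 in solvent libraries, without overlap (log2 fold change -0.15 with a standard error of 0.042, adjusted p = 0.185 by limma).

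Rpl5 and Rpl11 carry the 5S RNA into the subunit, and outside the ribosome they bind MDM2, the ligase that degrades p53. Rpl11 was at 212, 225 and 216 FPKM in CBR-5884 libraries and 250.5 and 247 with solvent. Its groups did not overlap (log2 fold change -0.19 with a standard error of 0.045, adjusted p = 0.152 by limma). Rpl5 was at 99.1, 89.7 and 89.9 FPKM in CBR-5884 libraries and 94.96 and 99.4 with solvent. Its groups overlapped through CBR-5884 replicate 3, in which 34.9 FPKM came from an assembled transcript (log2 fold change -0.065 with a standard error of 0.065, adjusted p = 0.618 by limma). The difference between these partners was not tested.

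The proteins of the exit tunnel and its rim, where the nascent chain leaves, had negative log2 fold changes in 8 of 8 genes, with a median of -0.13, and 7 did not overlap. Rpl19 (chromosome 11, 98026710 to 98030492) had the smallest unadjusted p of the large subunit genes. It was at 346, 354 and 362 FPKM in CBR-5884 libraries and 459 and 447 in solvent libraries (log2 fold change -0.36 with a standard error of 0.042, adjusted p = 0.086 by limma). The gap between the groups was several times the spread within them. Rpl22 is a large subunit protein on which T cell development depends in mice. It was at 339, 336 and 342 FPKM in CBR-5884 libraries and 373 and 346 in solvent libraries, a narrow separation (log2 fold change -0.084 with a standard error of 0.048, adjusted p = 0.401 by limma).

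Other large subunit genes with small p were lower in all CBR-5884 libraries. Rpl13a (chromosome 7, 45125558 to 45128761), whose protein in human myeloid cells also joins the interferon-activated GAIT complex that silences inflammatory messages, was at 347, 339 and 348 FPKM in CBR-5884 libraries and 418 and 403 in solvent libraries. Its log2 fold change was -0.25 (standard error 0.041, adjusted p = 0.122 by limma), and its start window above holds the CTTTC string. Rpl36, a large subunit protein, was at 254, 270.4 and 245 FPKM in CBR-5884 libraries and 315 and 312 in solvent libraries (log2 fold change -0.29 with a standard error of 0.056, adjusted p = 0.132 by limma). Rpl27, mutated in some people with the inherited anaemia named after Diamond and Blackfan, was at 139, 143 and 132 FPKM in CBR-5884 libraries and 164 and 172 in solvent libraries (log2 fold change -0.28 with a standard error of 0.054, adjusted p = 0.132 by limma). Neither gene's groups overlapped. Rpl18 (chromosome 7, 45715457 to 45720836), another gene of that anaemia, was at 308, 330.0 and 359 FPKM in CBR-5884 libraries and 446 and 416 in solvent libraries. It had the second most negative log2 fold change of the large subunit, -0.38, with a wider error (standard error 0.081, adjusted p = 0.141 by limma).

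Among the most abundant large subunit genes, Rpl32 was at 606, 591 and 611 FPKM in CBR-5884 libraries and 676 and 697 in solvent libraries. Rpl41, which encodes a very short basic peptide, was at 604, 585 and 594 FPKM in CBR-5884 libraries and 663 and 696 in solvent libraries. Rpl38, whose loss in mice alters the skeleton and the translation of Hox messages, was at 322, 320.1 and 309 FPKM in CBR-5884 libraries and 368 and 348 in solvent libraries. Their log2 fold changes were -0.19, -0.19 and -0.18, none overlapped, and their limma adjusted p was 0.14, 0.143 and 0.177. Of the large subunit, 2 standard genes had a positive log2 fold change. Rpl9 was at 368, 361 and 385 FPKM in CBR-5884 libraries and 367 and 370.4 with solvent, and Rpl36a was at 252, 259 and 266 FPKM in CBR-5884 libraries and 227 and 258 in solvent libraries. Both overlapped, with log2 fold changes of 0.0089 and 0.098 (adjusted p by limma = 0.925 and 0.489). That of Rpl36a was 0.0062 without solvent replicate 3 and 0.19 without solvent replicate 5. It is one of 4 X-linked genes of the family, of which the other 3 (Rpl10, Rpl39 and Rps4x) were lower in all CBR-5884 libraries.

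In the small subunit, genes of the head, which swivels as transfer RNAs move, were negative in 13 of 14, with a median log2 fold change of -0.23, and 12 did not overlap. Genes of the body and platform were negative in 17 of 17, with a median of -0.17, and 14 did not overlap. Differences between such groups were not tested. Rps12, at the beak of the head, was at 699, 694 and 709 FPKM in CBR-5884 libraries and 855 and 833 in solvent libraries (log2 fold change -0.27 with a standard error of 0.037, adjusted p = 0.101 by limma). Rps12 has neither CTTTC nor CTTCC in its start window.

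Rps19, whose mutation is the most common cause of Diamond-Blackfan anaemia in human, was at 278, 257 and 279.6 FPKM in CBR-5884 libraries and 353 and 339 in solvent libraries (log2 fold change -0.35 with a standard error of 0.058, adjusted p = 0.123 by limma). Its groups were well apart. All 18 genes that are mutated in that anaemia in human had negative log2 fold changes, with a median of -0.19. Of the 18, 13 did not overlap (72.2%), against 75.6% of all tested genes of the family. Rps29, the most abundant small subunit transcript, was at 1032, 936 and 944 FPKM in CBR-5884 libraries and 950.2 and 1023 with solvent. The groups overlapped almost wholly (log2 fold change -0.024 with a standard error of 0.066, adjusted p = 0.863 by limma), and the sign was positive under 3 rescalings. Rps20 had the lowest mean FPKM of the standard small subunit genes. It was at 31.9, 29.6 and 33.0 FPKM in CBR-5884 libraries and 29.7 and 32.5 with solvent. Its groups also overlapped (log2 fold change 0.017 with a standard error of 0.073, adjusted p = 0.91 by limma). All FPKM of Rps20 lay on its longest annotated transcript, of 3706 nt. Whether that length accounts for the low FPKM was not tested.

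Rps25, which is needed for initiation at several viral internal entry sites, was at 786, 814 and 838 FPKM in CBR-5884 libraries and 889.8 and 865 with solvent. Rps27a, made as a fusion with ubiquitin, was at 420.5, 404 and 418 FPKM in CBR-5884 libraries and 463 and 458 in solvent libraries. All CBR-5884 libraries were lower for both, with log2 fold changes of -0.11 and -0.15 (adjusted p by limma = 0.288 and 0.171). In the body, Rps2, at the entry channel of the message, was at 236, 253 and 248 FPKM in CBR-5884 libraries and 313 and 311 in solvent libraries (log2 fold change -0.34 with a standard error of 0.047, adjusted p = 0.101 by limma). Rps6, the protein that S6 kinases phosphorylate, was at 122, 131 and 133 FPKM in CBR-5884 libraries and 153 and 155 in solvent libraries (log2 fold change -0.25 with a standard error of 0.054, adjusted p = 0.141 by limma). Neither overlapped. Rpsa, also known as a laminin receptor, was at 183, 199 and 194 FPKM in CBR-5884 libraries and 224 and 212 in solvent libraries (log2 fold change -0.18 with a standard error of 0.058, adjusted p = 0.215 by limma).

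Rps14, a platform protein whose loss of 1 copy underlies the anaemia of the 5q- syndrome in human, had the most negative log2 fold change of the family. It was at 568, 539 and 592 FPKM in CBR-5884 libraries and 806 and 891 in solvent libraries (log2 fold change -0.58 with a standard error of 0.069, adjusted p = 0.086 by limma). The groups were far apart, yet the value of solvent replicate 5 came wholly from an assembled transcript of 569 nt, while the reference transcripts were listed at 0 there. With reference transcripts only the log2 fold change was therefore positive, 4.32. With the length-weighted level it was -0.54 and Rps14 passed the test (limma, adjusted p = 0.0471), the single ribosomal protein gene to do so under any alternative tried.

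Transcripts assembled from the reads made up at least 10% of a gene's FPKM in 18 of the gene and library pairs, over 13 genes. Assembly ran separately in each library, so the same gene could be split in one library and not in another. The genes in this paragraph were chosen after their values were seen. Rpl34 in solvent replicate 3 (724 FPKM) and Rpl7 in CBR-5884 replicate 5 (317 FPKM) were wholly assembled, and Rpl37a in CBR-5884 replicate 3 held 252 of its 744 FPKM in a fragment of 276 nt. Over the whole family, the sum with CBR-5884 was 0.877 of the sum with solvent. It was 0.901 with reference transcripts only and 0.874 with the length-weighted level.

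**Figure D3:**
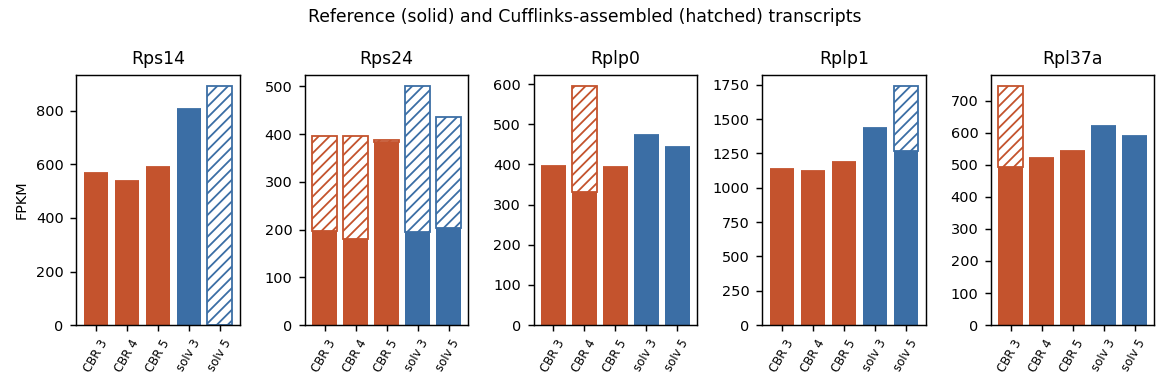
FPKM of 5 genes in each library, CBR-5884 in orange and solvent in blue, with reference transcripts solid and Cufflinks-assembled transcripts hatched. Rps14 in solvent replicate 5 is wholly hatched (891 FPKM), and the single high libraries of Rplp0, Rplp1 and Rpl37a carry a hatched part.

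Rps24, whose messages differ by splicing near the 3' end, had forms that compared differently. In all, it was at 395, 396 and 388 FPKM in CBR-5884 libraries and 499.5 and 435 with solvent, without overlap (log2 fold change -0.25 with a standard error of 0.071, adjusted p = 0.187 by limma). The annotated form of 837 nt was at 196, 180.3 and 200.3 FPKM in CBR-5884 libraries and 195 and 204 in solvent libraries, so its groups overlapped. The short forms of 432 to 468 nt were at 199, 216 and 182 FPKM in CBR-5884 libraries and 303 and 231 in solvent libraries. These were reference transcripts in CBR-5884 replicate 5 and assembled ones in the other libraries. With reference transcripts only the log2 fold change of Rps24 was 0.26.

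The remaining standard subunits had negative signs with FPKM as deposited. Of 26 other large subunit genes, 26 had negative log2 fold changes, running from -0.27 for Rpl12 to -0.0011 for Rpl24, and 21 did not overlap. Their means ran from 124 to 602 FPKM in CBR-5884 libraries and from 132 to 679 with solvent. Of 18 other small subunit genes, 18 were negative, running from -0.35 for Rps15 to -0.043 for Rps15a, and 16 did not overlap. Their means ran from 191 to 670.3 FPKM in CBR-5884 libraries and from 204 to 853 with solvent.

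Values of the paralogs lay on both sides. Of the 6 tested genes outside the standard set, 3 had negative and 3 positive log2 fold changes, with a median of -0.0042, and all 6 overlapped, against 62 of 76 standard genes (81.6%) without overlap. The difference between the sets was not tested. Rps27l, a p53 target in human cells and close in sequence to Rps27, was at 177, 187 and 192 FPKM in CBR-5884 libraries and 169.7 and 195 with solvent. Rps27 was at 846, 776 and 837 FPKM in CBR-5884 libraries and 818 and 936 in solvent libraries. Both overlapped, with log2 fold changes of 0.028 and -0.095 (adjusted p by limma = 0.866 and 0.549). Rpl22l1, which Rpl22 protein represses in mice, was at 65.1, 66.3 and 64.4 FPKM in CBR-5884 libraries and 59.4 and 64.9 with solvent (log2 fold change 0.071 with a standard error of 0.055, adjusted p = 0.521 by limma). Its start window holds CTTCC.

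**Figure D4:**
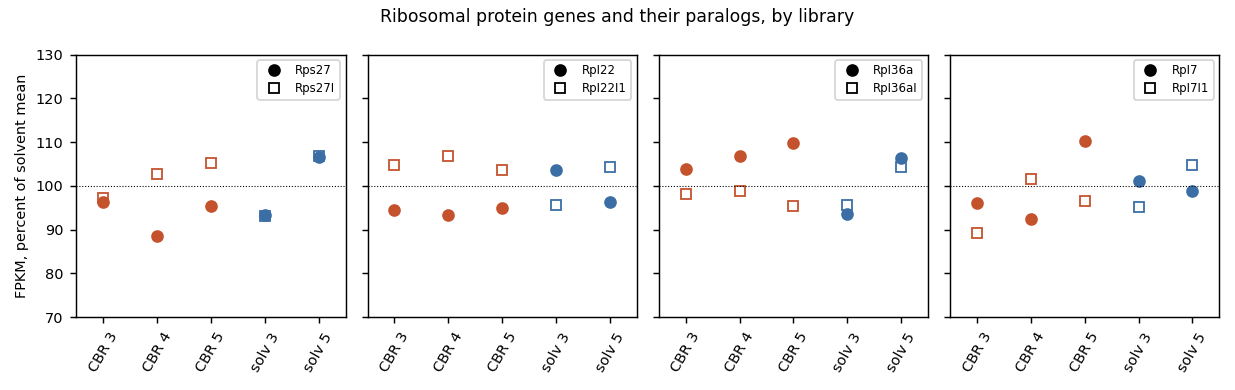
FPKM of 4 standard genes (filled circles) and their paralogs (open squares) in each library as a percentage of the gene's solvent mean, CBR-5884 in orange and solvent in blue. Rpl22 lies below its solvent libraries in all 3 CBR-5884 libraries and Rpl22l1 does not, and the other pairs overlap in both members.

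Rps19bp1 was at 13.6, 17.1 and 13.7 FPKM in CBR-5884 libraries and 13.7 and 14.8 with solvent, with overlap (log2 fold change 0.042 with a standard error of 0.12, adjusted p = 0.865 by limma), and 8.83 FPKM of the high CBR-5884 replicate 4 was assembled. At low levels the libraries of a group differed widely. Rps27rt, annotated as a copy of Rps27, was at 3.92, 0.48 and 0 FPKM in CBR-5884 libraries and 1.17 and 2.41 with solvent (log2 fold change -0.49 with a standard error of 0.76, adjusted p = 0.747 by limma). Rpl3l, a paralog of Rpl3 used in striated muscle, was at 0.0848, 0.0886 and 0 FPKM in CBR-5884 libraries and 0.139 and 0.0919 with solvent. How reads shared with near-identical copies were split was not tested. The 286 annotated ribosomal protein pseudogenes summed to 161, 170.3 and 117 FPKM in CBR-5884 libraries and 140.4 and 84.0 with solvent. Of these, 275 had a mean below 1 FPKM, and with them the ratio of the family sums was 0.879.

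Log2 fold changes of standard genes were also set side by side by what their promoters hold. The median log2 fold change was -0.15 for 22 genes with CTTTC or CTTCC at the start and -0.16 for 34 without. A gene without these strings can still hold a pyrimidine run there, as the Rps12 window does, so the genes are not split by TOP tract. The median was -0.18 for 24 genes with CCGGAAG and -0.12 for 32 without, and -0.094 for 9 genes with AAGATGG and -0.18 for 47 without. The ranges overlapped in each pair, and the differences were not tested.

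Genes that belong to the same machinery under other names were then compared. In the pair given here the groups did not overlap. Rack1, a scaffold on the small subunit head, was at 322, 321 and 324 FPKM in CBR-5884 libraries and 379.8 and 374 with solvent (log2 fold change -0.23 with a standard error of 0.036, adjusted p = 0.12 by limma). Fau, which encodes Rps30 fused to a ubiquitin-like protein, was at 313, 298 and 294 FPKM in CBR-5884 libraries and 378 and 362 in solvent libraries (log2 fold change -0.29 with a standard error of 0.049, adjusted p = 0.126 by limma). Both encode standard ribosomal proteins, and their values lay on the same side as the family's.

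Other TOP messages encode translation factors and also other proteins, among them those of Vim and Hnrnpa1. They had negative log2 fold changes in 21 of 24 genes, with a median of -0.054. Without 1 library this median was -0.075 to -0.13, the last without CBR-5884 replicate 5, and on the TPM scale it was -0.0098. In 13 of the 24 all CBR-5884 libraries were below both solvent libraries and in 1 (Vim) above, against 24.9% and 16.6% of all genes. Of the 24, 0 passed limma's adjusted test (9 lower and 0 higher at an unadjusted p below 0.05, against 12.4% and 7.24% of all genes). Eef1b2, an exchange factor of elongation factor 1, was at 239.5, 245 and 239 FPKM in CBR-5884 libraries and 291 and 281 in solvent libraries (log2 fold change -0.25 with a standard error of 0.040, adjusted p = 0.122 by limma). Eef2, which drives translocation, was at 433, 416 and 435 FPKM in CBR-5884 libraries and 545 and 494 in solvent libraries (log2 fold change -0.28 with a standard error of 0.059, adjusted p = 0.14 by limma). Neither overlapped.

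Regulators of TOP messages and S6 kinases went both ways, with 11 of 21 negative and a median of -0.041 (0.0070 after quantile normalization). Of the 21, 0 passed limma's adjusted test (3 lower and 1 higher at an unadjusted p below 0.05, against 12.4% and 7.24% of all genes). Mlst8, a subunit of the mTOR complexes, was at 4.82, 4.30 and 4.15 FPKM in CBR-5884 libraries and 7.30 and 7.31 with solvent (log2 fold change -0.62 with a standard error of 0.077, adjusted p = 0.0917 by limma). Larp4, an RNA-binding protein that protects poly(A) tails, was at 16.4, 17.0 and 15.7 FPKM in CBR-5884 libraries and 13.7 and 14.0 with solvent (log2 fold change 0.22 with a standard error of 0.054, adjusted p = 0.16 by limma). The first was lower and the second higher in all CBR-5884 libraries.

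Chaperones and importers that escort newly made ribosomal proteins were negative in 10 of 13 genes, with a median of -0.074. It was -0.18 without CBR-5884 replicate 4, -0.035 without CBR-5884 replicate 5 and -0.028 after quantile normalization. Of the 13, 0 passed limma's adjusted test (3 lower and 1 higher at an unadjusted p below 0.05, against 12.4% and 7.24% of all genes). Aamp, whose yeast counterpart escorts Rpl10, was at 55.4, 55.2 and 56.2 FPKM in CBR-5884 libraries and 75.5 and 68.4 with solvent (log2 fold change -0.36 with a standard error of 0.058, adjusted p = 0.121 by limma). Pdcd2l, related to the escort of Rps2, was at 10.6, 13.3 and 13.0 FPKM in CBR-5884 libraries and 18.03 and 19.9 with solvent (log2 fold change -0.59 with a standard error of 0.12, adjusted p = 0.132 by limma). Transcription factors with sites in ribosomal protein promoters were positive in 7 of 9 tested genes, with a median of 0.099 (-0.027 with reference transcripts only). In 4 of these all CBR-5884 libraries were above both solvent libraries, against 16.6% of all genes, and 0 passed limma's adjusted test (0 lower and 2 higher at an unadjusted p below 0.05, against 12.4% and 7.24%). Creb1 was at 13.2, 13.8 and 13.5 FPKM in CBR-5884 libraries and 11.9 and 11.7 with solvent (log2 fold change 0.17 with a standard error of 0.047, adjusted p = 0.176 by limma). Zfp281 was at 6.19, 6.65 and 6.19 FPKM in CBR-5884 libraries and 4.88 and 5.69 with solvent (log2 fold change 0.23 with a standard error of 0.083, adjusted p = 0.249 by limma).

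The ribosome of mitochondria takes its proteins from other nuclear genes. Its 78 genes summed to 1627, 1704 and 1709 FPKM in CBR-5884 libraries and 1824 and 1809.9 with solvent, and the groups did not overlap. Of 77 tested genes, 59 had negative log2 fold changes, with a median of -0.088. Without 1 library it was -0.056 (CBR-5884 replicate 3) to -0.12, and after quantile normalization -0.047. In 23 all CBR-5884 libraries were below both solvent libraries (29.9%) and in 6 above, against 24.9% and 16.6% of all genes. Of the 77, 0 passed limma's adjusted test (12 lower and 0 higher at an unadjusted p below 0.05, against 12.4% and 7.24% of all genes). Mrpl34 was at 33.4, 35.1 and 37.1 FPKM in CBR-5884 libraries and 44.0 and 44.1 with solvent (log2 fold change -0.32 with a standard error of 0.060, adjusted p = 0.132 by limma). Mrpl28 was at 21.9, 25.4 and 23.2 FPKM in CBR-5884 libraries and 31.2 and 30.9 with solvent (log2 fold change -0.39 with a standard error of 0.075, adjusted p = 0.132 by limma). The share without overlap was near that of all genes, 24.9%, and below the 75.6% of the cytosolic family, a difference that was not tested.

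**Figure D5:**
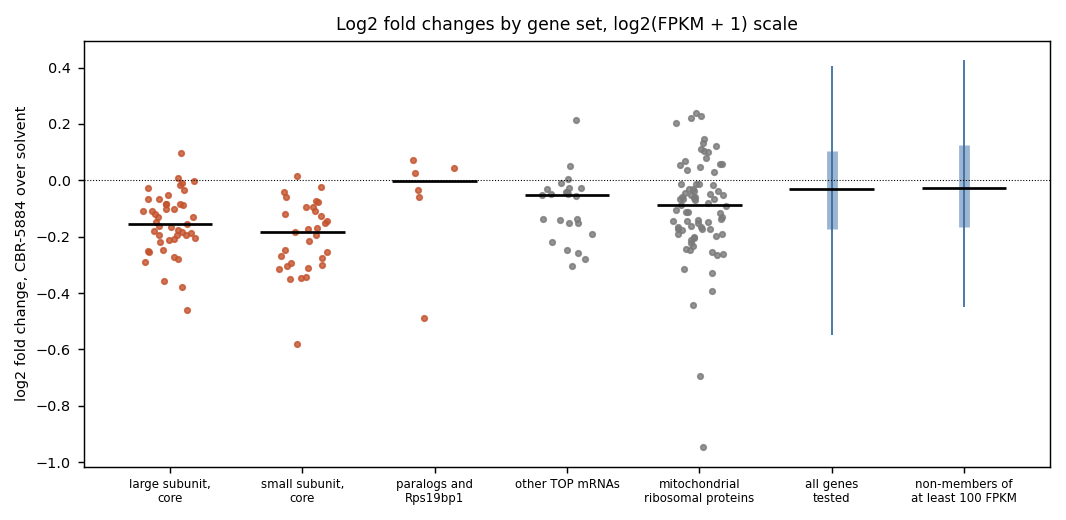
Log2 fold changes, CBR-5884 over solvent, for each gene (points) of the standard large and small subunits, the paralogs with Rps19bp1, other TOP mRNAs and mitochondrial ribosomal proteins, with black lines at medians. The blue bars give the 5th to 95th and 25th to 75th percentiles of all tested genes and of other genes of at least 100 FPKM; the standard subunits have medians of -0.16 and -0.18, against -0.031 over all genes.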

How the data were processed

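Per the labels' protocols, total RNA was made into directional libraries and sequenced as single reads of 75 bp. Bowtie2, TopHat2, Cufflinks and the builds mm10 and GRCm38 are named in the submitters' processing notes; strand setting, annotation release and tool versions were not given in the sources used here. The deposited files hold 1 FPKM value per transcript, and the authors' FPKM were estimated in each library separately, per the file contents. FPKM is not a count, so depth was implied from coverage over FPKM, which is constant within a library, at 75 bp per read.

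Genes of reference transcripts were looked up in GENCODE M21 (70828 to 70852 of 71215 to 71239 per library). Assembled transcripts of at least 200 nt with at least 50% of exonic bases on a gene, same strand, were added. All others, with 64.0% to 70.3% of each library's summed FPKM, were left out. Gene FPKM was the sum. On 10770 genes with a mean of at least 1 FPKM, log2 of the deposited FPKM plus 1 was fitted with limma 3.58.1 (R 4.3.3; lmFit, eBayes with a variance trend, two-sided, 3 residual degrees of freedom) and Benjamini-Hochberg adjusted over all genes; a gene passed at 0.05. This scale understates the change of low genes. The procedure was also run on simulated data, and the outcome is not given here. Python 3.11.15 did the rest. An FPKM of 0 can be a failed estimate.

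The genes and lists were chosen with earlier results of these data known, and counts over them carry no test. Named genes were, per subunit, the 4 of smallest p, the 4 of highest mean, the 2 largest log2 fold changes each way, every positive one, every gene at 0 in some but not all libraries, and a fixed set; in related lists the 2 of smallest p. Others named were chosen after their values were seen. A few genes that these rules select are not reported here, but stay in sums, counts and medians. Coordinates are 1-based, GRCm38.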

Additional observations from a re-analysis of the deposited data

How the results depend on the processing

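The number of large subunit genes passing the adjusted test was 0 under every alternative, and that of small subunit genes was 0 except with the length-weighted level, an alternative chosen after seeing the data, where it was 1 (Rps14, log2 fold change -0.54, limma adjusted p = 0.0471). The number of all genes that passed, 24, was 38 without a filter on the mean, 9 at a mean of at least 5 FPKM, 39 with reference transcripts only, 62 with the length-weighted level, and 3 with a replicate block. Leaving out 1 library gave 19 to 89, with 89 without solvent replicate 3 and 66 without solvent replicate 5; in these fits the lone solvent library is assumed to vary like the CBR-5884 libraries.

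The median log2 fold change of large subunit genes, -0.14, was -0.13 without a filter, -0.17 with reference transcripts only, -0.088 on a common sum (TPM scale), -0.11 with median ratios, -0.098 with quantiles, -0.11 scaled to protein-coding genes without ribosomal proteins, -0.15 with the replicate block and -0.16 with the length-weighted level. That of small subunit genes, -0.18, was -0.13, -0.15, -0.12 and -0.14 under the 4 rescalings in that order. Without 1 library the medians were -0.13 to -0.15 and -0.15 to -0.19. Both stayed negative throughout. The ratio of the subunit sums, CBR-5884 over solvent, was 1.03, and 1.00 with reference transcripts only and 1.01 with the length-weighted level. The family sum ratio of 0.877 was 0.901 with reference transcripts only. It depends on the scale of the libraries, and no value under the 4 rescalings is given for it. As a share of protein-coding FPKM the family held a mean of 6.29% with CBR-5884 and 6.75% with solvent. That relative difference is smaller than the one of the sums. The causes were not tested.

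Signs turned for genes near 0, and with reference transcripts only also for Rps14 and Rps24. Those 2 genes were at -0.58 and -0.25 with all transcripts, and the reference transcripts of Rps14 were listed at 0 in solvent replicate 5. With reference transcripts only, Rps14 was at 4.32, Rps24 at 0.26, Rps19bp1 at -0.28 and the median of the transcription factors at -0.027. Rplp0 was at 0.027 on the TPM scale, 0.015 with median ratios, 0.080 with quantiles and 0.015 without ribosomal proteins in the scale; Rps29 was at 0.021, 0.0081 and 0.0086 under the first, second and last of these. The regulators' median was 0.0070 with quantiles. Rps19bp1 was at -0.012 with the length-weighted level. Leaving out 1 library gave -0.21 to 0.084 for Rplp0 (positive without CBR-5884 replicate 3 or 5 or solvent replicate 3), -0.060 to 0.096 for Rps19bp1 (negative without CBR-5884 replicate 4 or solvent replicate 3), -0.077 to 0.029 for Rps29 (positive without CBR-5884 replicate 4 or solvent replicate 5) and -0.047 to 0.080 for Rps20 (negative without CBR-5884 replicate 5 or solvent replicate 3). It gave -0.017 to 0.028 for Rpl9 (negative without CBR-5884 replicate 5), -0.072 to 0.13 for Rps27l (negative without solvent replicate 3), -0.19 to 0.0014 for Rps27 (positive without solvent replicate 5) and -0.036 to 0.087 for the regulators' median (positive without CBR-5884 replicate 5 or solvent replicate 5). In 7 other genes the sign was kept but the value moved by over 1.5 times, to between -0.043 and -0.090 for Rpl10, -0.032 and -0.14 for Rpl22, 0.0089 and 0.13 for Rpl22l1, 0.0062 and 0.19 for Rpl36a, -0.033 and -0.11 for Rpl5, -0.15 and -0.35 for Rps24, and -0.011 and -1.16 for Rps27rt. Over 36 named genes and 20 alternatives, 693 values kept sign and side of the threshold, 25 turned sign and 1 passed.

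Replicate numbers 3 and 5 occur in both groups, but the labels do not say that they pair libraries, and with 2 pairs the same-numbered deviations correlated at r = 0.070 and 0.082. The replicate block, with 1 residual degree of freedom, left 0 ribosomal protein genes and gave Rps19bp1 at -0.060 and Rps29 at 0.0016. With 5 libraries and no counts in the files, no interval for counting error was given.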
